A study of Mus musculus with 10 samples.

Results

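The olfactory receptor (OR) genes examined here lie in 3 clusters of mouse chromosome 11. They were taken by name, as every probe set whose annotation gave 1 gene symbol of the form Olfr followed by a number from 311 to 331, from 376 to 412 or from 1371 to 1396, a rule that uses no measured value, although the clusters were picked with earlier results of these data known. This gave 52 probe sets for 52 receptors, of 1034 OR probe sets with 1 symbol and 35556 probe sets in all. The Olfr1371 to Olfr1396 cluster held 16 of them, the Olfr311 to Olfr331 cluster 15 and the Olfr376 to Olfr412 cluster 21. All 52 matched a gene of chromosome 11 in RefSeq, where 51 are protein coding and Olfr1372-ps1 is a transcribed pseudogene. The array does not cover the clusters in full. Between the first and last member RefSeq places 29, 19 and 43 receptor genes, in the same order of clusters, of which 25, 18 and 29 are protein coding.

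The arrays came from whole main olfactory epithelium (MOE), the sensory lining of the nose, of 5-week old mice. There were 4 arrays of H2be-GF mice and 6 of wild-type (WT) mice. H2be-GF mice carry a transgene, passed on as heterozygous from a founder line crossed to C57Bl/6, in which the promoter of olfactory marker protein (Omp) drives a FLAG-tagged form of H2BE, a variant of histone H2B that is encoded by Hist2h2be. Per the study, the transgene is active in mature neurons except for a band of the epithelium, RNA of several animals was combined for each array, the H2be-GF pools being made of more animals than the WT pools. The series' own design text, not the labels of any array, states that males and females were mixed. The labels name no littermate controls. A p-value here measures how pools differ from each other, which says less about single animals.

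A mature olfactory neuron transcribes 1 allele of 1 receptor gene, chosen from a large repertoire of genes that sit in clusters of related genes on many chromosomes. The receptor is a G protein-coupled protein that couples to the olfactory G protein and to adenylyl cyclase in the cilia, and it also guides the neuron's axon. Because few neurons choose any given receptor, its signal in whole tissue follows both the number of neurons that chose it and the RNA each of them makes, and fewer cells cannot be told apart from less RNA per cell in these arrays. The comparison of H2be-GF with WT asks how receptor transcripts shift when H2BE is forced on in mature neurons.

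Of the 52 receptors, 39 had a mean log2 value above 7, the level above which ORs were adjusted among themselves, and 13 were dimmer. No member was at 0 on any array. Array means over the ORs above 7 lay between 7.96 and 8.18, and arrays correlated with each other at 0.969 to 0.988 over all probe sets tested. Xist, the RNA that coats the inactive X chromosome of females, reached at least 11.69 on 2 H2be-GF and 3 WT arrays and at most 4.61 on the remaining 5. This split is a sign of the sex of the pooled animals, which the labels do not give per array. Genotype was crossed with it, and changes within each set are given beside the results. The probe set of Hist2h2be averaged 11.84 on the H2be-GF arrays and 12.07 on the WT arrays, with SDs of 0.07 and 0.05. Where its probes lie relative to the transgene's coding sequence was not known here, so it does not check the labels.

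Few receptors of the clusters were called, at a share not far from that of all ORs above 7, and their changes were small. Of the 39 members above 7, 5 passed a Benjamini-Hochberg adjusted p of 0.05 over the 748 ORs above 7 in limma, or 12.8%, beside 9.89% of those 748 ORs. Lower in H2be-GF were 4 of the 39, Olfr315, Olfr314, Olfr1389 and Olfr1384, beside 5.88% (44) of the 748 ORs called lower. Higher was 1 of the 39, Olfr394, beside 4.01% (30) of those ORs called higher. Both lower calls of the Olfr311 to Olfr331 cluster stood side by side, the other lower calls were in the Olfr1371 to Olfr1396 cluster, and the higher call was in the Olfr376 to Olfr412 cluster. Adjusted over all 23194 probe sets tested, limma called 0 of the 52 members, beside 0.0862% of all probe sets. Without adjustment, 10 members had a p under 0.05, 2 higher and 8 lower, beside 8.43% of all probe sets tested (4.35% higher, 4.07% lower). Of these members, 9 were among the 39 above 7, 2 higher and 7 lower, where 23.0% of the 748 ORs had such a p (12.2% higher, 10.8% lower).

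Olfr315 had the largest called change. Its log2 values were 7.56, 7.36, 7.17 and 7.36 on the H2be-GF arrays, and its WT arrays ran from 7.52 over a median of 7.72 to 7.94. The highest H2be-GF array reached into the WT range, and the other 3 lay below every WT array. The change was -0.36 (SE 0.09, adjusted p = 0.0337 over ORs).

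Olfr314, the next member along the chromosome, was at 7.77, 7.86, 7.92 and 7.76 in H2be-GF and between 7.96 and 8.31 in WT, with a median of 8.11. All 4 H2be-GF arrays lay below all 6 WT arrays. It fell by 0.30 on the log2 scale (SE 0.08, adjusted p = 0.0345 over ORs). Although both neighbours were lower in H2be-GF, their values did not go up and down together from array to array: after taking off the genotype means they correlated at -0.32 over the 10 arrays, which share their normalization.

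Olfr1389 was at 8.36, 8.20, 8.12 and 8.10 in H2be-GF, against 8.36 to 8.58 with a median of 8.43 in WT. H2be-GF array 1 sat at the lower edge of the WT range and the other 3 below it. The change was -0.27 (SE 0.07, adjusted p = 0.0456 over ORs).

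Olfr1384 was at 9.99, 9.90, 10.05 and 9.98 in H2be-GF and ran from 10.07 over 10.23 to 10.34 in WT. The genotypes did not overlap. It fell by 0.23 (SE 0.07, adjusted p = 0.0456 over ORs).

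Olfr394 was the only member called higher. It was at 7.73, 7.65, 7.60 and 7.38 in H2be-GF and at 7.18 to 7.40 with a median of 7.33 in WT. The lowest H2be-GF array lay within the WT range and the other 3 above it. The change was 0.27 (SE 0.08, adjusted p = 0.0456 over ORs). Its symbol is also among those of a probe set shared by 7 receptors, at 11.60 in H2be-GF and 11.62 in WT, whose signal cannot be divided among them.

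Olfr1372-ps1, the pseudogene, was not called but its genotypes did not overlap. The H2be-GF arrays were at 10.15, 10.08, 10.16 and 10.15, and WT ran from 10.23 to 10.59. The change was -0.23 (SE 0.07, adjusted p = 0.0614 over ORs). In all, the genotypes of 3 members (Olfr314, Olfr1384 and Olfr1372-ps1) did not overlap, each lower in H2be-GF, and none lay apart on the higher side. Among the 748 ORs, 9.49% did not overlap in either direction 5.48% were lower without overlap and 4.01% higher.

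**Figure D1:**
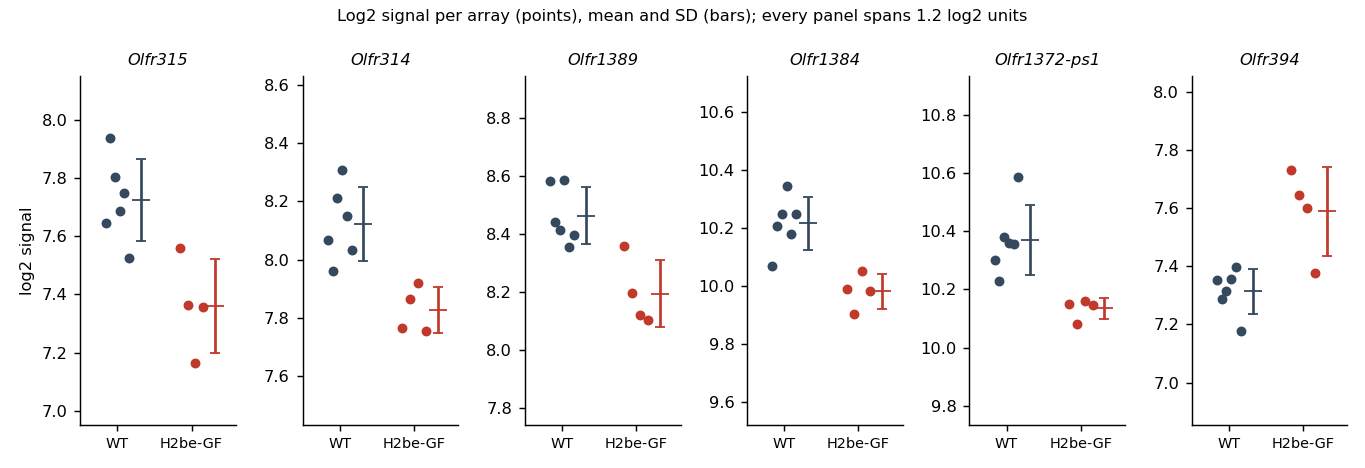
Log2 signal (vertical axis, log2 units, every panel spanning the same range) of the 5 called members and Olfr1372-ps1 on the 6 WT arrays in dark and the 4 H2be-GF arrays in red. Points are arrays and the bars beside them give the mean and SD. Only Olfr314, Olfr1384 and Olfr1372-ps1 show no overlap between genotypes, and Olfr394 is the one that lies higher in H2be-GF, with an array at 7.38 inside the WT range.

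The calls rested on most of the arrays. Olfr315 was no longer called without H2be-GF array 2, 3 or 4 or WT array 3, 4 or 5, and its adjusted p ranged from 0.0259 to 0.110 as each array was left out. Olfr314 was not called without H2be-GF array 1, 2 or 4 or WT array 3, 4 or 5 (0.0220 to 0.104). Olfr1389 stayed called only without H2be-GF array 1 or WT array 5 (0.0311 to 0.121), Olfr1384 only without WT array 1 (0.0292 to 0.129) and Olfr394 only without H2be-GF array 4 (0.0146 to 0.139). With H2be-GF array 2 left out, 0 of the 5 were called, and 33 of the 748 ORs were, in place of 74. No call changed direction, which is likely for members called on these same arrays. Over these fits the change of Olfr315 stayed between -0.43 and -0.30 and that of Olfr394 between 0.23 and 0.35.

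Sequence upstream of the start is shown here for 3 of the receptors that were lower and for a pair of other members, since homeodomain factors such as Lhx2 and factors of the Olf/Ebf (O/E) family are known to bind close to OR promoters. Each run is 250 bases that end just before the RefSeq start of the gene in GRCm38.p6, 5′ to 3′ along the gene's own strand, and capitals mark the homeodomain motifs TAATTA and TAATGA on either strand. Whether the RefSeq start is where transcription begins in these neurons was not known here. The first 3 are Olfr314, chr11:58785889-58786138 (+ strand), Olfr1384, chr11:49513368-49513617 (+ strand), and Olfr1389, chr11:49430177-49430426 (+ strand), which were called lower.
Olfr314: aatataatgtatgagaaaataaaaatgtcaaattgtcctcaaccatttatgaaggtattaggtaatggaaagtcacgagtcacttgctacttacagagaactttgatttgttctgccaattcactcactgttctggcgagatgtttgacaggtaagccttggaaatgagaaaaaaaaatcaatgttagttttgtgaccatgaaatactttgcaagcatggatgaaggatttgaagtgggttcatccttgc
Olfr1384: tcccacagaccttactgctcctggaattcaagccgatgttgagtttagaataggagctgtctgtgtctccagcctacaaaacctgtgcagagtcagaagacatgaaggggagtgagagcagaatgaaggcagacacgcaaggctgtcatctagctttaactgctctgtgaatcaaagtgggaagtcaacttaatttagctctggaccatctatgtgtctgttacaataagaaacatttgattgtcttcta
Olfr1389: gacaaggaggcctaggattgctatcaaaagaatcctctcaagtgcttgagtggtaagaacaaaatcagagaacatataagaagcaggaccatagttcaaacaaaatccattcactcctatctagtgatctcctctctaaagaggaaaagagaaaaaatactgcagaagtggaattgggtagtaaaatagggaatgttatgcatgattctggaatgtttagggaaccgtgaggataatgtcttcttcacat
None of these windows held a homeodomain motif or the O/E-like motif CCCNNGGG. Olfr315 and Olfr394 have no entry in the promoter table. The other 2 are from the Olfr376 to Olfr412 cluster, Olfr378, chr11:73428478-73428727 (- strand), which had the largest rise of that cluster among uncalled members with an adjusted p over ORs, and Olfr393, chr11:73848124-73848373 (- strand), which held the most motifs of all members.
Olfr378: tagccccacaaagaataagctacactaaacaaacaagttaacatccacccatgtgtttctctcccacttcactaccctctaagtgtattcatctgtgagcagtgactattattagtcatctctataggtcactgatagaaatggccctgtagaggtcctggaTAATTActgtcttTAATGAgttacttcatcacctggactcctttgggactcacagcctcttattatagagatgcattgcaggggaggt
Olfr393: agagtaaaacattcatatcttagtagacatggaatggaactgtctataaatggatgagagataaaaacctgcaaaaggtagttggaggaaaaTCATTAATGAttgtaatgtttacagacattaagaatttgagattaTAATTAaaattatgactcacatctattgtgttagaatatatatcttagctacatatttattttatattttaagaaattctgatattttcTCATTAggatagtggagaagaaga
In Olfr378 the motifs began 88 and 75 bases before the start, and in Olfr393 there were 4, at 158, 154, 113 and 24 bases, the first 2 of which overlap.

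Of the 52 members, 43 had a promoter in the table, and 18 of these (41.9%) held TAATTA or TAATGA on either strand, beside 37.6% of 904 other OR promoters and 12.5% of all 32851 promoters of the same length. The clusters differed in this share, with 2 of 13 (15.4%) in Olfr1371 to Olfr1396, 5 of 13 (38.5%) in Olfr311 to Olfr331 and 11 of 17 (64.7%) in Olfr376 to Olfr412. Their base composition differed as well, with median GC contents of 38.4%, 40.8% and 30.4%, beside 33.6% for other OR promoters. The motif CCCNNGGG stood in 2 of 43 (4.65%), those of Olfr330 and Olfr398, beside 2.65% of other OR promoters and 11.8% of all promoters. In the Olfr376 to Olfr412 cluster, 10 of the 11 members with a homeodomain motif had a change above 0 and a median of 0.07, beside 3 of 6 and -0.01 without one. Of those with the motif, Olfr381, Olfr382, Olfr384, Olfr385, Olfr397 and Olfr402 were dim, whereas all 6 without it had a mean above 7. The motif thus went along with the signal level, and the part of each was not tested. Several windows with the motif are also alike, such as Olfr381 and Olfr384 (60.8% of positions matching) and Olfr380 and Olfr393 (46.8%). The 11 are therefore not independent cases. In the other clusters, too, the median was higher with the motif than without. The share above 0 was lower with it in Olfr311 to Olfr331, and Olfr1371 to Olfr1396 had only 2 members with it. In Olfr311 to Olfr331, 1 of 5 with the motif and 3 of 8 without it were above 0 (medians -0.01 and -0.07), and in Olfr1371 to Olfr1396, 1 of 2 and 4 of 11 (medians -0.03 and -0.12). Over the other ORs with a promoter entry, 181 of 302 with the motif and 281 of 514 without it were above 0, with medians of 0.05 and 0.02. A match is a description of letters and was not tied to binding or to the changes by a test.

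Across a cluster, rises and falls were mixed. In the Olfr1371 to Olfr1396 cluster, 7 members had a change above 0 and 9 below, with a median of -0.09, which was -0.02 without H2be-GF array 3. Besides Olfr1389, Olfr1384 and Olfr1372-ps1, the largest falls were those of Olfr1377 (-0.37, SE 0.21) and Olfr1392 (-0.14, SE 0.06, adjusted p = 0.214 over ORs), and the largest rises those of Olfr1378 (0.12, SE 0.15), Olfr1395 (0.10, SE 0.07, adjusted p = 0.495) and Olfr1396 (0.08, SE 0.10, adjusted p = 0.681). Olfr1377 and Olfr1378 had means of 7 or less, and the value of Olfr1377 rested on H2be-GF array 4, at 5.71, while the other 3 were between 6.73 and 6.91. The fall of Olfr1392 had an unadjusted p of 0.0489.

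The Olfr311 to Olfr331 cluster had 5 members above and 10 below 0, with a median of -0.06, which was -0.01 without WT array 2 and -0.03 without WT array 4. After Olfr315 and Olfr314 came Olfr323 (-0.26, SE 0.17), Olfr328 (-0.18, SE 0.08, adjusted p = 0.208) and Olfr313 (-0.16, SE 0.13). Of these, Olfr323 and Olfr313 were dim, and Olfr328 averaged 8.93 ± 0.09 (SD, n = 4) over the H2be-GF arrays against 9.11 ± 0.13 (SD, n = 6) over the WT arrays. The largest rises were those of Olfr322 (0.28, SE 0.28), Olfr324 (0.14, SE 0.08, adjusted p = 0.342) and Olfr311 (0.09, SE 0.11, adjusted p = 0.682). Olfr322, the largest of these, was also the most uneven member of the cluster, with an SD of 0.48 over the H2be-GF and 0.54 over the WT arrays.

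The Olfr376 to Olfr412 cluster had 14 members above and 7 below 0 and a median of 0.04, beside 575 above and 443 below and a median of 0.03 over all ORs tested. Its median was 0.005 without H2be-GF array 1, 0.006 without WT array 3, 0.01 without WT array 5, 0.02 without WT array 6 and 0.08 without WT array 4. Olfr378 was at 7.79, 7.67, 7.81 and 7.72 in H2be-GF and ran from 7.19 over 7.49 to 7.72 in WT, with a change of 0.24 (SE 0.10, adjusted p = 0.171 over ORs). Its H2be-GF arrays lay in or above the upper part of the WT range. Olfr381 (0.24, SE 0.14) and Olfr385 (0.22, SE 0.26) were dim, and Olfr385 rested on H2be-GF array 1. The largest falls were those of Olfr412 (-0.36, SE 0.11), Olfr410 (-0.17, SE 0.12, adjusted p = 0.448) and Olfr401 (-0.16, SE 0.10, adjusted p = 0.399). Olfr412, at the far end of the cluster, had the same size of change as Olfr315 and an unadjusted p of 0.0076, but its mean of 6.91 kept it from the adjustment over ORs, and its adjusted p over all probe sets was 0.391.

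**Figure D2:**
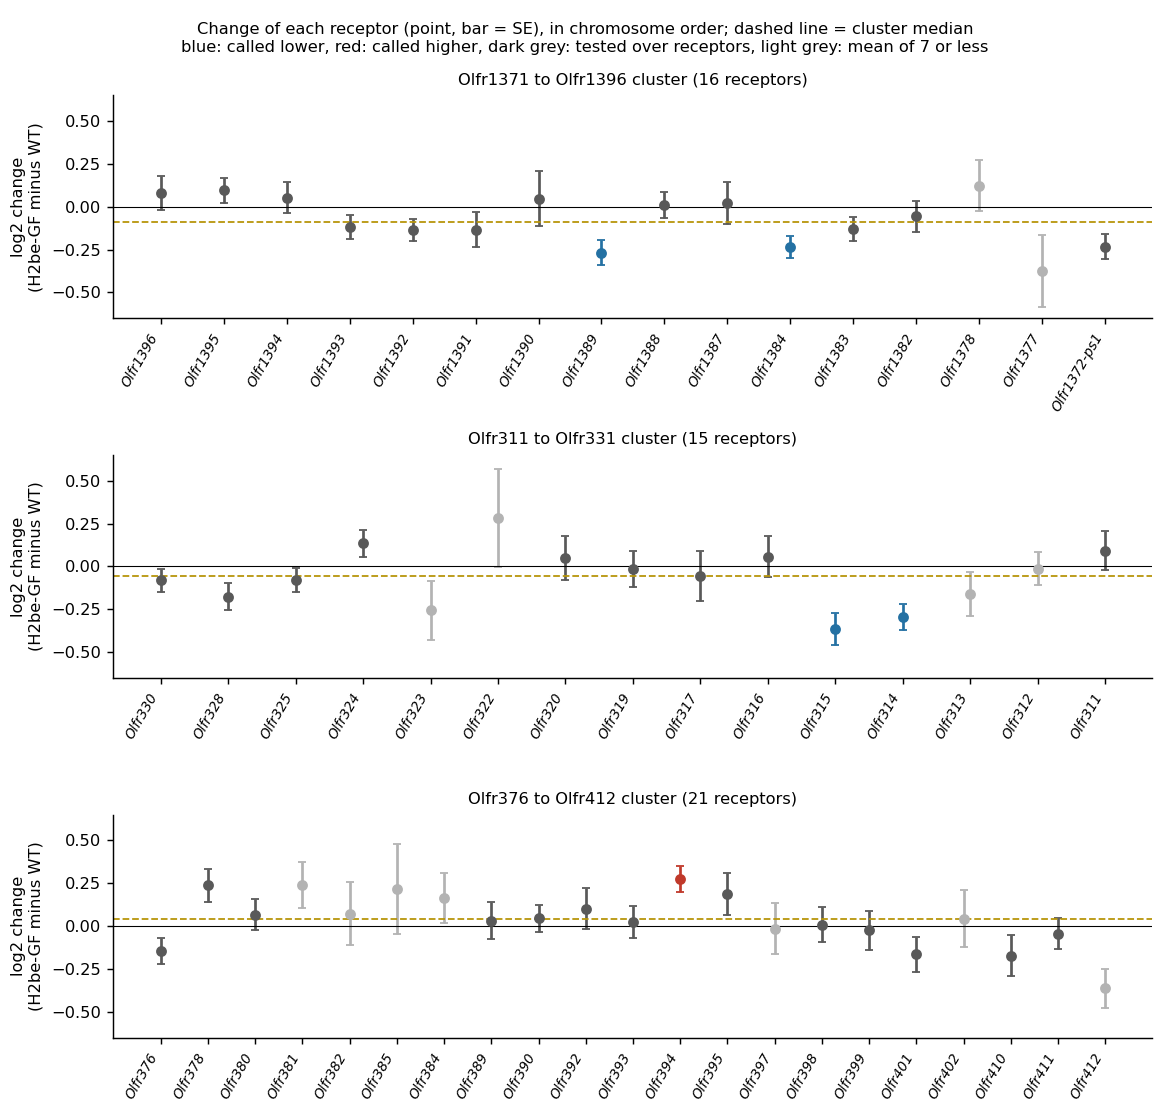
Log2 change, H2be-GF minus WT (vertical axis, log2 units, bars are SE), of the 52 receptors in their order along chromosome 11 within each cluster. Blue and red points were called lower and higher over ORs, light grey points had a mean of 7 or less, and the dashed lines mark cluster medians of -0.09, -0.06 and 0.04. Olfr315 and Olfr314 stand next to each other at -0.36 and -0.30, and most other points lie within 0.2 of 0.

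Neighbouring members along the chromosome did not share a direction more often than neighbouring ORs elsewhere. Here a neighbour is the next member in order, and other receptors that lie between were passed over. The Olfr1371 to Olfr1396 span also holds 42 tested genes that are not receptors, so some of its adjacent members lie far apart. The upstream windows of Olfr1382 and Olfr1378, for example, start at chr11:49534937 and chr11:50968770. The ORs elsewhere were paired in order along each chromosome, across different clusters too, so the distances in the comparison are not alike. Of 49 pairs of adjacent members, 29 (59.2%) had changes of the same sign, beside 590 of 941 pairs (62.7%) of adjacent ORs elsewhere. The share was 8 of 15 in the Olfr1371 to Olfr1396 cluster, 7 of 14 in Olfr311 to Olfr331 and 14 of 20 in Olfr376 to Olfr412. Around the called members, Olfr1389 stood between Olfr1390 (0.05) and Olfr1388 (0.01), Olfr1384 between Olfr1387 (0.02) and Olfr1383 (-0.13), and Olfr394 between Olfr393 (0.02) and Olfr395 (0.19). Olfr315 and Olfr314 lay between Olfr316 (0.06) and Olfr313 (-0.16). Apart from the pair Olfr315 and Olfr314, no called member thus had a called neighbour among the members.

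Set against each other, the clusters differed by little. The median change of the Olfr376 to Olfr412 cluster was 0.13 above that of Olfr1371 to Olfr1396 and 0.10 above that of Olfr311 to Olfr331, and the last pair differed by 0.03. The first difference was 0.07 without H2be-GF array 1 and 0.06 without H2be-GF array 3, and the second 0.05 without H2be-GF array 1 and 0.06 without WT array 2. The last ranged from -0.03 to 0.07 as each array was left out. To see these differences on single arrays, the members were centred on their WT means and the median taken per array. For Olfr376 to Olfr412 minus Olfr1371 to Olfr1396, these values were between -0.05 and 0.23 on the H2be-GF arrays and between -0.12 and 0.11 on the WT arrays, and 2 of the 4 H2be-GF arrays lay above all WT arrays. For Olfr376 to Olfr412 minus Olfr311 to Olfr331, they ran from 0.03 to 0.14 and from -0.12 to 0.10, with 1 H2be-GF array above all WT arrays. The genotypes overlapped in every pair of clusters, and no p is given, since the sets were chosen with results of these data known.

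Against the ORs outside the clusters, whose changes had a median of 0.03 and an SD of 0.20, the members had a median of -0.001 and an SD of 0.17. The ORs called outside are all those that the name rule did not take, and some of them lie between members on the chromosome. Over all 23194 probe sets the median was 0.01. The per-array medians of Olfr1371 to Olfr1396 averaged -0.08 ± 0.09 (SD, n = 4) for H2be-GF against 0.01 ± 0.07 (SD, n = 6) for WT, and those of Olfr311 to Olfr331 were -0.07 ± 0.03 and -0.01 ± 0.10. For Olfr376 to Olfr412 they were 0.003 ± 0.08 and 0.01 ± 0.12. In each cluster the genotypes overlapped. Of the 19 probe sets of other chromosome 11 receptors, 15 had a mean above 7, and limma called 0 of these over ORs, beside 9.89% of the 748 ORs. Of the 19, 2 had an unadjusted p under 0.05, both lower, beside 112 higher and 91 lower of the 1018 ORs with a mean above 5. The median change of the 19 was 0.03.

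**Figure D3:**
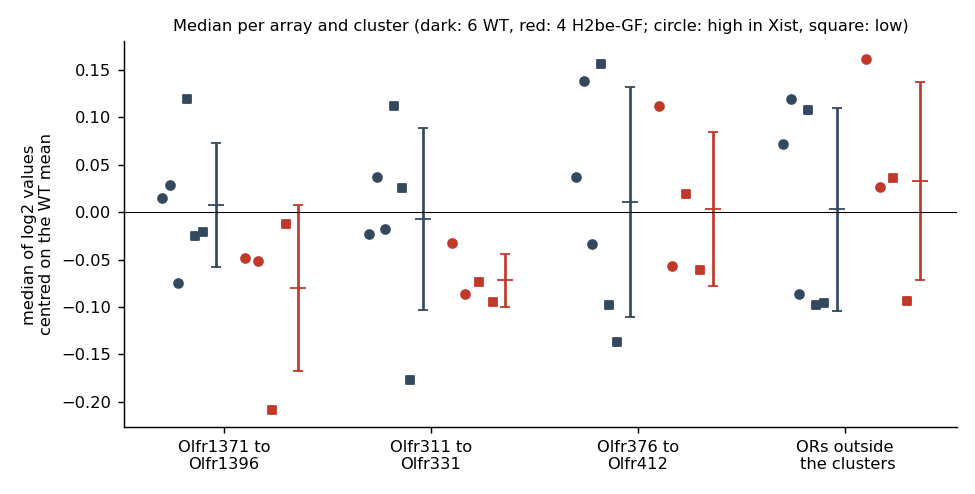
Median over the members of each cluster, and over the ORs outside them, of the log2 values after each receptor's WT mean was taken off (vertical axis, log2 units), with the 6 WT arrays in dark and the 4 H2be-GF arrays in red. Circles are arrays high in Xist and squares arrays low in Xist, and bars give mean and SD. The genotypes overlap in all sets, with H2be-GF at -0.08 and -0.07 on average in the first clusters and near 0 in Olfr376 to Olfr412.

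How the members varied from array to array, with the genotype means taken off, also differed between clusters. The median correlation between members above 7 was 0.19 in Olfr1371 to Olfr1396, 0.02 in Olfr311 to Olfr331 and 0.35 in Olfr376 to Olfr412, beside 0.30 among other ORs, over 10 arrays that share their normalization. With the mean of all ORs the members correlated at a median of 0.43, and the other ORs at 0.60. These are descriptions of arrays that share a scale, with no test.

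Within the sets of arrays that differ in Xist, the called members kept their sign, which says little, since they were called on these same arrays. For Olfr314 and Olfr1384, whose genotypes did not overlap, the same sign in both sets was certain. Olfr315 changed by -0.33 in the high set and -0.39 in the low set, Olfr314 by -0.27 and -0.33, Olfr1389 by -0.20 and -0.33, Olfr1384 by -0.23 and -0.24, and Olfr394 by 0.37 and 0.18. With 2 H2be-GF and 3 WT arrays in each set, none of the 5 was called within a set, and 0 of the 748 ORs were, although 4 members in the high set and 9 in the low set had an unadjusted p under 0.05 (15.5% and 12.2% of the 748 ORs). Over all members, 31 of 52 (59.6%) had the same sign in both sets, beside 69.7% of other ORs. A limma interaction of genotype and Xist set called no member, and 3 of 52 had an unadjusted p under 0.05, beside 37 of 966 other ORs. These were Olfr1377, Olfr323 and Olfr322, all dim, chosen here after their values were seen. Olfr322 changed by 0.99 in the high and -0.43 in the low set, with an adjusted p of the difference of 1 over all probe sets.

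**Figure D4:**
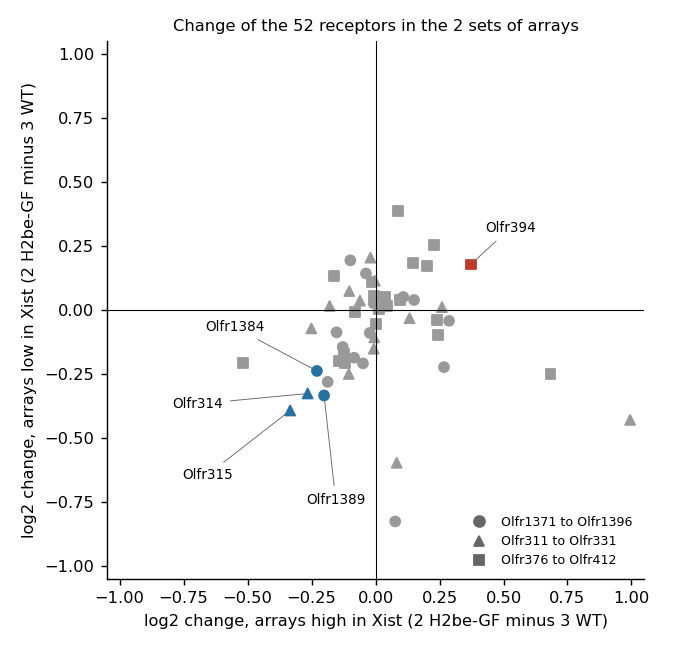
Log2 change, H2be-GF minus WT, of the 52 receptors in the 5 arrays high in Xist (horizontal axis) against the 5 low in Xist (vertical axis), 2 H2be-GF and 3 WT arrays in each, both in log2 units, with the cluster shown by the symbol. Blue and red points are the called members, which lie in the quadrants of equal sign, as is likely for members called on these same arrays. The points farthest from the diagonal are dim receptors such as Olfr322 at 0.99 and -0.43.

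Probe sets assigned to several receptors gave a further view of the same clusters, though no gene is named from them. There were 13 that listed at least 1 symbol of the ranges, and 16 of the 52 members were among their symbols, of the called ones only Olfr394. A group of 4 probe sets listed the same 5 receptors of the Olfr1371 to Olfr1396 range. Their changes lay between -0.31 and -0.23, the genotypes of 2 of them did not overlap, and their unadjusted p lay between 0.0022 and 0.0131. A pair listing the same 6 receptors, 5 of them of the Olfr311 to Olfr331 range, changed by -0.15 each, without overlap between genotypes. The other 7 lay between -0.07 and 0.19. None of the 13 was called over all probe sets in limma, the smallest adjusted p being 0.297, although 6 of 13 had an unadjusted p under 0.05, beside 8.43% of all probe sets and 23.0% of the 748 ORs, and 4 of 13 did not overlap, beside 9.49% of those ORs. Since probe sets with the same symbols may measure the same transcripts, these counts are not of independent measurements.

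Genes that share the neighbourhood but are no receptors did not move in a body. Of 70 tested genes that lay inside a cluster or were among the 5 nearest on each side, 0 were called over all probe sets in limma, 31 had a change above 0 and 39 below, and the median was -0.01. Most of them, 42, lay inside the Olfr1371 to Olfr1396 cluster, and only 2 inside each of the other clusters. At an unadjusted p under 0.05 there were 3 of 70 on each side, a share near the 4.35% higher and 4.07% lower of all probe sets, so that the count sets these genes apart in neither direction. Those with positive values were Cnot6, a subunit of the deadenylase that shortens mRNA tails (0.16), Grm6, a glutamate receptor of retinal bipolar cells (0.45), and Clk4, a kinase of splicing factors (0.14), all inside the Olfr1371 to Olfr1396 cluster. Those with negative values were Lypd9 (-0.22) and the histone gene H2bu2 (-0.25), both beside Olfr311 to Olfr331, and Ccdc92b (-0.23) beside Olfr376 to Olfr412. These 6 were named after their values were seen.

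The genes that carry a receptor's signal, or bring the receptor to the membrane, did not pass the test. Of 14 transduction genes, among them Gnal, Adcy3 and Cnga2, which encode the G protein, cyclase and channel of the cascade, limma called 0 over all probe sets, 1 had an unadjusted p under 0.05, 3 had a change above 0, and the median was -0.08. Of the trafficking genes Rtp1, Rtp2 and Reep1, 0 of 3 were called and 0 had an unadjusted p under 0.05. Omp (-0.10), Cnga2 (-0.12) and Rtp1 (-0.11) were lower without overlap between genotypes, and no other gene of these lists lay apart on either side. Of all 23194 probe sets tested, 372 were lower and 299 higher without overlap. Of 14 genes of receptor choice, 1 was called, the homeodomain factor Lhx2, whose H2be-GF arrays averaged 11.46 ± 0.03 (SD, n = 4) and whose WT arrays averaged 11.09 ± 0.06 (SD, n = 6), a change of 0.37 (SE 0.06, adjusted p = 0.0425 over all probe sets). Ebf1 and Ebf3, factors of the O/E family, had values of 0.14 each, with adjusted p of 0.576 and 0.581.

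The cell makeup of the tissue was read from markers beside these changes. The mature neuron list (Omp, Cnga2, Adcy3, Gnal, Gng13 and Stoml3) had a summed log2 level of 14.82 to 14.89 in H2be-GF and 14.88 to 14.97 in WT, 5 of its 6 genes had a change below 0, and 0 were called. The immature neuron list ran from 12.93 to 13.03 in H2be-GF and from 12.91 to 13.11 in WT. The respiratory ciliated list was lower without overlap, at 11.73 to 11.89 against 11.90 to 12.06, with 0 of 5 called and 4 at an unadjusted p under 0.05. In the sustentacular, horizontal basal, Bowman gland, blood and immune, and muscle lists the genotypes overlapped, 0 genes were called, and 1 sustentacular and 1 blood and immune gene had an unadjusted p under 0.05, as had 2 of the immature neuron list. No list held a marker at 0 on all arrays. The part of these shifts in the changes of the receptors was not tested.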

How the data were processed

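Whole MOE of 4 H2be-GF and 6 WT pools was measured on Affymetrix Mouse Gene 1.0 ST arrays, grouped by the genotype in the labels. The authors ran Affymetrix Expression Console to summarise probes by IterPLIER after a sketch-quantile step, checked outliers with arrayQualityMetrics, and deposited log2 values per probe set, which ran from 0 to 14.20. Tool versions and the genome build of the annotation are not given in the sources used here. Quantile normalization hides a change shared by most genes, IterPLIER sets dim probe sets near 0, and the number of arrays limits the precision.

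Names came from the platform annotation (21789 with 1 symbol, 1621 with several, 12146 with none), updated by Entrez ID with RefSeq GRCm38.p6, which also gave gene order and promoters. Differences were tested, H2be-GF minus WT and two-sided, with limma 3.58.1 in R 4.3.3 (lmFit, eBayes, no covariate) on the 23194 probe sets with a symbol and a mean above 5, with Benjamini-Hochberg adjustment over these and, after the study's methods, over the 748 ORs with a mean above 7. The threshold was 0.05. The procedure was tested on simulated data. The rule for naming took every called member, every member whose genotypes did not overlap, per cluster the 3 largest uncalled rises and falls, and called genes of the lists and neighbours. The members and lists were chosen with earlier results of these data known. Alternatives covered normalization, an added constant of 16 on the linear scale, limma's trended robust variance, weights per array, a block for the replicate number, the Xist set, filters on dim probe sets, the summary per cluster and leaving out each array. Summaries and plots used Python 3.11.15, pandas 2.3.3 and matplotlib 3.10.9. Protein sequences were not used here.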

Additional observations from a re-analysis of the deposited data

Results flagged for a closer look

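Among the 23 named members, the 4 H2be-GF and 6 WT arrays gave 46 groups, and in 4 of them 1 array stood far from the rest of its group. Chance gives about 1 in 20 among groups not picked by their values, a rate that does not apply here, since members were named partly for the size of their change. All 4 were H2be-GF arrays. Olfr1372-ps1 was at 10.08 on array 2, while the other 3 lay between 10.15 and 10.16, a narrow range that makes a small gap stand out. Olfr1395 was at 9.51 on array 1, above 9.33 to 9.36 on the others. The dim Olfr1377 was at 5.71 on array 4, below 6.73 to 6.91 on the others. The dim Olfr385 was at 6.71 on array 1, above 5.10 to 5.36 on the others. No member's change was called different between the sets of arrays high and low in Xist.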

How the results depend on the processing

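The directions of the 5 called members held under all 22 alternatives for single members, which reuse the arrays that gave the calls. Each call was lost under some of them, 9 for Olfr315, 10 for Olfr314, 13 for Olfr1389, 16 for Olfr394 and 17 for Olfr1384. The count of members lower in H2be-GF, 4 in the report, was 2 with a mean above 6, with no filter on the mean and with receptors centred on their array mean, 5 with the trended robust variance, and ranged from 0 to 3 as each array was left out. The count higher, 1 in the report, was 0 with arrays centred on their median, with a mean above 6, with no filter, with the trended robust variance, and from 0 to 1 leaving out arrays. The Olfr1371 to Olfr1396 cluster had 2 calls, 1 with array weights or with median or receptor centring, 0 with either filter, 3 with the trended robust variance, and 0 to 1 leaving out arrays. The Olfr311 to Olfr331 cluster had 2, 1 with receptor centring, and 0 to 2 leaving out arrays. The Olfr376 to Olfr412 cluster had 1, 0 with median centring, either filter or the trended robust variance, and 0 to 1 leaving out arrays. Within the arrays high in Xist and within those low in Xist all these counts were 0, with fewer arrays in the fit. The filters adjusted over 964 and 1034 ORs. The cause of the other losses was not tested.

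The replicate numbers did not pair the arrays: same-numbered H2be-GF and WT arrays correlated in their deviations at 0.53, 0.22, -0.42 and 0.26, and 1 of the 4 H2be-GF arrays correlated best with its own number. With the replicate number as a block, 0 members were called lower and 0 higher, 0 in each cluster, although 10 of 52 had an unadjusted p under 0.05, beside 21.9% of the 748 ORs, and 6 of the 748 ORs were called in place of 74. Under the block the median of Olfr376 to Olfr412 was -0.02.

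Over all probe sets, 0 members were called in the main setting and under the other alternatives, and 1, Olfr1372-ps1, with the trended robust variance (adjusted p = 0.0464). Olfr1372-ps1 was also called over ORs with that variance model (0.0040) and without WT array 2 (0.0385). The neighbours had 0 calls throughout. Cluster medians, all small, moved by large parts of their own size. Leaving out each array, they ranged from -0.11 to -0.02 for Olfr1371 to Olfr1396, from -0.08 to -0.01 for Olfr311 to Olfr331 and from 0.005 to 0.08 for Olfr376 to Olfr412, and the differences of the last from the first and second from 0.06 to 0.17 and from 0.05 to 0.11. The difference of Olfr311 to Olfr331 from Olfr1371 to Olfr1396 changed sign without H2be-GF array 3 (-0.03) and, at -0.0001, without the pseudogene. The planned comparison of member proteins was not run. Dim members, 13 of 52, are the least certain.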

Other observations

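Position by position, the stretches upstream of the members seldom matched. Compared base by base at the same distance from the start, without gaps, over 250 bases, pairs within a cluster matched at a median of 26.2% to 28.4% of positions. Only 2 pairs passed 50%, Olfr381 with Olfr384 (60.8%) and Olfr312 with Olfr311 (55.6%). A comparison without gaps misses likeness that is shifted along the sequence. Olfr322 and Olfr317 share long, nearly identical runs at different distances from the start, as do Olfr389 and Olfr392. Olfr381 and Olfr384, both dim, changed by 0.24 and 0.16, and Olfr312 and Olfr311 by -0.01 and 0.09, and none of the 4 was called.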
